A study of Rattus norvegicus with 6 samples.

Results

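MicroRNAs of liver cells are not all read from 1 fixed first base. The reads described here are 5′-shifted forms, tags that start 1 or 2 bases after (+1 and +2 forms) or 1 base before (-1 forms) the first base of an abundant tag, called the parent. A tag is a distinct read sequence with its number of reads. The parents were selected on measured abundance: tags of 20 to 24 nt were ranked by mean TPM (the count divided by the library's clean reads, times 1000000) over the 6 libraries, only the most abundant of tags with the same first 18 bases was kept, and the top 50 were taken. A shifted form is a tag of 18 to 25 nt whose first 16 bases equal parent bases 2 to 17 or 3 to 18, or whose bases 2 to 17 equal parent bases 1 to 16. Of the 50 parents, 5 were themselves shifted forms of a more abundant parent and were counted with it, which left 45. Each tag was counted once, with the most abundant parent it matched. There were 3885 shifted forms among 1528721 different tags: 1918 of the +1 kind, 826 of the +2 kind and 1141 of the -1 kind.

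The libraries came from whole liver of male Wistar rats, 4 months old per the sample labels although the study's methods give another age, with 1 library per rat and 3 rats per group. Rats of the NAFLD group (nonalcoholic fatty liver disease) were fasted and then given a starch-rich diet for a week, and normal rats received a standard diet. Of the rats on the starch diet, those sequenced were picked for high liver triglycerides, while the normal rats were drawn at random, so the NAFLD group is a diet model sampled at its more affected end. Each library held 11601058 to 11880695 clean reads. In bulk liver, fewer cells of a type and less RNA per cell cannot be told apart.

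The libraries also differed in a property that the groups do not explain. The share of reads with another base at position 4, as the median over the 23 parents with a miRNA name, was 0.0295% to 0.0480% in NAFLD 1, normal 1 and normal 3, and 2.64% to 2.89% in NAFLD 2, NAFLD 3 and normal 2. These sets of libraries, called low-substitution and high-substitution here, hold rats of both groups. Since a parent and its shifted forms carry different bases at each read position, the difference within each set is given beside the parents described, as NAFLD minus normal in percentage points over all kinds of shift unless a kind is named. Each set holds 1 library of one group and 2 of the other, so these differences have no test of their own. Among the 24 parents with at least 100 parent reads and 20 shifted reads in every library, all high-substitution libraries lay above all low-substitution ones for 3 parents and below them for 8. No share over a wider set of parents is given beside these counts, so they cannot be read as particular to these parents. The part of substitutions in these values was not tested beyond the counts that allow 1 substitution, given below.

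A miRNA is cut from a hairpin by the enzymes Drosha and Dicer, and where those cuts fall sets its first base. Argonaute proteins then read target messages mainly through the seed, bases 2 to 8 counted from the 5′ end. A form that starts 1 base earlier or later therefore presents another seed, whereas a change of the 3′ end leaves the seed as it is. Forms that differ in this way are called 5′ isomiRs.

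Names came from RefSeq mature rat miRNAs (build GRCr8). Of the 45 parents, 23 matched a mature miRNA over their first 18 bases. A further 11 were substitution variants, within 2 substitutions of a parent at least 5 times as abundant, and 11 matched neither; both kinds carry only their abundance rank here, as in parent 8. The sequences that follow are the miRNA parents with the most shifted reads and their most abundant shifted forms, as read, with the seed in capitals:
miR-192-5p parent: cTGACCTAtgaattgacagcca
miR-192-5p, +1 form: tGACCTATgaattgacagccagt
miR-192-5p, -1 form: tCTGACCTatgaattgacagcc
miR-140-3p parent: tACCACAGggtagaaccacggac
miR-140-3p, +1 form: aCCACAGGgtagaaccacgga
miR-101b-3p parent: tACAGTACtgtgatagctgaag
miR-101b-3p, +1 form: aCAGTACTgtgatagctgaagt
miR-101b-3p, -1 form: gTACAGTActgtgatagctga
miR-191a-5p parent: cAACGGAAtcccaaaagcagctgt
miR-191a-5p, +1 form: aACGGAATcccaaaagcagctgt

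The RefSeq hairpins show where these reads begin. In the stretches below, the 4 bases before the annotated first base are in lower case and the 22 bases from it on are in capitals:
Mir192 hairpin: ggcuCUGACCUAUGAAUUGACAGCCA
Mir140 hairpin: guucUACCACAGGGUAGAACCACGGA
Mir101-2 hairpin: aaggUACAGUACUGUGAUAGCUGAAG
Mir191 hairpin: cgggCAACGGAAUCCCAAAAGCAGCU
Mature miR-192-5p lies at chr1:212994232-212994252 on the plus strand, in no other gene of the RefSeq table. Mature miR-140-3p lies at chr19:52375353-52375373 within the span of Wwp2, miR-101b-3p at chr1:236273982-236274002 within Rcl1, and miR-191a-5p at chr8:118142641-118142663 within Dalrd3, all on the plus strand. The strands of these host genes were not compared, and exon limits were not used here.

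By the parent sequence alone, a shifted start gives another seed for every parent and kind of shift, 135 of 135 combinations. This follows from the shift itself and includes parents without shifted reads, such as parent 48. For miR-192-5p, a miRNA abundant in liver, gut and kidney, the parent seed TGACCTA became GACCTAT in the +1 form. For miR-140-3p, known for its role in cartilage, ACCACAG became CCACAGG. For miR-101b-3p, of a family known to target the histone methyltransferase Ezh2, ACAGTAC became CAGTACT in the +1 form and TACAGTA in the -1 form. None of these shifted seeds was the seed of another of the 724 RefSeq mature miRNAs. Over the 69 combinations of the miRNA parents, 11 shifted seeds (15.9%) were the seed of a RefSeq miRNA, where the 585 different seeds of that table make up 3.57% of the 16384 possible seeds. Parents of a family repeat the same shifted seed among the 69, so the shares are unlike and no excess can be read from them.

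Most of those 11 came from the let-7 family, regulators of developmental timing and growth. The +1 form of 6 let-7 parents had the seed AGGTAGT, which is that of miR-196a-5p, miR-196b-5p and miR-196c-5p. These forms were rare in each library: the +1 reads were at most 0.290% of the parent reads for any let-7 parent. The let-7a-5p/let-7c-5p parent tag has the end of let-7a-5p, while its most abundant +1 form has that of let-7c-5p. Its percents set the shifted reads of both miRNAs against that let-7a-5p tag alone, since the rule compares 16 bases. The most abundant such forms and their parents read:
let-7a-5p/let-7c-5p parent: tGAGGTAGtaggttgtatagtt
let-7a-5p/let-7c-5p, +1 form: gAGGTAGTaggttgtatggtt
let-7f-5p parent: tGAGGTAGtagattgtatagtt
let-7f-5p, +1 form: gAGGTAGTagattgtatagtt
The -1 form of miR-103-3p/miR-107-3p carried the seed of the miR-15/16 group, with 1 to 7 reads per library. The +1 form of miR-24-3p carried that of miR-222-5p, with 16 to 27 reads per library. The +2 form of miR-423-5p had the seed of miR-326-5p and 40 to 85 reads per library.

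Shifted reads were a small part of each library and came from few parents. They made up 1.52%, 0.849% and 0.931% of the clean reads in NAFLD 1 to 3, and 1.07%, 0.638% and 0.860% in normal 1 to 3. Of the 3885 forms, 578 were read in all 6 libraries and 1833 in only 1 library. Averaged over the libraries, miR-192-5p gave 29.5% of all shifted reads, parent 20 13.7%, parent 29 13.2%, miR-140-3p 13.1% and miR-101b-3p 7.69%.

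All values from here on, unless stated otherwise, are reads of shifted forms as a percent of the reads of the exact parent tag in the same library, so a value above 100 means more shifted than parent reads. The parent tag is 1 of several 3′ ends of a miRNA, and the percent of all reads that share the parent's first 16 bases is therefore lower. Among the 23 miRNA parents, 4 reached 10% in every library (miR-192-5p, miR-101b-3p, miR-191a-5p and miR-140-3p) and 6 reached 1%, the others being miR-10a-5p and miR-24-3p. For 13 miRNA parents the shifted reads stayed under 1% in every library. The median over the 23 of the mean percent was 0.572%.

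Among these parents miR-140-3p was the only miRNA whose shifted reads outnumbered its parent tag in every library. Its +1 forms came to 204%, 309% and 276% of the parent in NAFLD 1 to 3 and to 777%, 271% and 234% in normal 1 to 3. Normal 1 stood apart because its parent tag had 1972 reads against 3651 to 8499 in the other libraries, while its most abundant +1 form, at 443 TPM, lay within the 273 to 569 TPM of the others. Against all reads with the parent's first 16 bases, the +1 forms were 161.7% in normal 1 and 58.0% to 81.6% elsewhere, so at that scale they outnumbered the unshifted reads only in normal 1. For all kinds of shift together, the groups overlapped with normal 1 (exact permutation p = 0.7). Without it the difference of means, NAFLD minus normal, turned from -168 to 10.2 percentage points (exact permutation p = 0.8). It was -307 points within the low-substitution set, which holds normal 1, and 21.6 points within the high-substitution set.

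The next parent was miR-192-5p, the most shifted of the 10 most abundant parents. Its +1 forms were 43.3%, 60.7% and 67.3% of the parent in NAFLD 1 to 3, and 59.4%, 79.5% and 48.0% in normal 1 to 3. The groups overlapped, at 57.1 ± 12.4% (SD, n = 3) in NAFLD and 62.3 ± 15.99% (SD, n = 3) in normal (exact permutation p = 0.8). Within the sets of like substitution the NAFLD libraries were lower, by 10.4 points in the low-substitution set and by 15.5 points in the high-substitution set. Counted against all reads with the parent's first 16 bases and allowing 1 substitution in those bases, the same values were 12.0%, 13.0% and 13.3% in NAFLD and 14.0%, 14.8% and 12.7% in normal. On that count the gap between the substitution sets narrowed and the groups still overlapped. The -1 forms of miR-192-5p stayed between 0.725% and 0.936% in all libraries.

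For miR-101b-3p, reads started both earlier and later than the parent. The +1 forms were 33.7%, 32.7% and 34.7% of the parent in NAFLD and 30.2%, 28.5% and 31.9% in normal. Every NAFLD library lay above every normal one, by 3.52 points on average, and the two-sided exact permutation test gave p = 0.1, the smallest that 3 libraries against 3 allow. Against all reads with the parent's first 16 bases the separation was gone: 11.61%, 10.5% and 10.8% in NAFLD and 11.1%, 10.8% and 11.8% in normal. The -1 forms were 60.6%, 30.5% and 27.7% in NAFLD and 53.5%, 22.02% and 54.5% in normal. These values followed the substitution sets: the low-substitution libraries read 53.5% to 60.6% and the high-substitution libraries 22.02% to 30.5%. Within both sets the NAFLD libraries were higher, by 6.61 and 7.06 points. With 1 substitution allowed and all reads of the parent's start as the base, the -1 forms read 22.9%, 15.4% and 13.8% in NAFLD and 21.5%, 13.5% and 22.2% in normal, still apart by set.

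The +1 forms of miR-191a-5p, which lies in a gene cluster with miR-425, were 15.4%, 29.6% and 26.7% in NAFLD and 17.5%, 27.2% and 18.5% in normal (exact permutation p = 0.8). The high-substitution libraries, at 26.7% to 29.6%, lay above the low-substitution ones, at 15.4% to 18.5%. Within these sets the +1 difference was 0.936 and -2.62 points. With 1 substitution allowed, the range over all libraries closed to 8.54% to 10.96% of the reads with the parent's start. For miR-10a-5p, whose gene sits in a Hox cluster, the +1 forms were 4.03% to 6.40% in NAFLD and 4.54% to 6.14% in normal. Their difference was 0.702 points within the low-substitution set and 0.0617 points within the high-substitution set.

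The most abundant tag of the liver libraries, miR-122-5p, the hepatocyte miRNA, was hardly shifted. With 1937892 to 2723714 parent reads per library, its shifted forms of all kinds were 0.0762%, 0.0424% and 0.0439% of the parent in NAFLD and 0.0650%, 0.0290% and 0.0562% in normal. The groups overlapped (exact permutation p = 0.9). Within each set the NAFLD libraries were higher, by 0.0156 points in the low-substitution set and 0.0141 points in the high-substitution set. In a limma fit of log2 percent over 151 parents, described below, the log2 difference was 0.14 (adjusted p = 0.992) without the set and 0.45 with the set as a covariate (unadjusted p = 0.0207, limma adjusted p = 0.313). Over all kinds of shift, the let-7 parents among the 10 most abundant (let-7f-5p, let-7a-5p/let-7c-5p, let-7b-5p, let-7g-5p and let-7d-5p) ranged from 0.0688% to 0.469%. In the low-substitution and high-substitution sets the difference was 0.0224 and 0.0150 points for let-7f-5p, 0.0441 and 0.0180 for let-7a-5p/let-7c-5p, 0.0781 and 0.0210 for let-7b-5p, -0.00499 and 0.0546 for let-7g-5p, and 0.140 and 0.0601 for let-7d-5p. In both sets every NAFLD library was above every normal one for let-7f-5p, let-7b-5p and let-7d-5p. Reads 1 base longer at the start of let-7b-5p were counted with let-7a-5p/let-7c-5p, because the rule compares 16 bases, which these parents share.

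miR-29a-3p, whose family represses collagen genes, was read almost only from 1 base upstream when shifted: its -1 forms were 0.935%, 1.502% and 1.43% in NAFLD and 1.02%, 1.68% and 0.856% in normal. The groups overlapped, and the high-substitution libraries lay above the others. The difference of its -1 forms was -0.00267 points within the low-substitution set and -0.219 points within the high-substitution set. Its parent and main -1 form read:
miR-29a-3p parent: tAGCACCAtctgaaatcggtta
miR-29a-3p, -1 form: cTAGCACCatctgaaatcggtta
For parent 10, a substitution variant of miR-122-5p, the low-substitution libraries held 1 to 3 parent reads, and 1 shifted read was found in all. Parent 11, another such variant, had 0.414% to 0.897% shifted reads in the high-substitution libraries, with 22975 to 30955 parent reads, and 76.8% to 93.9% in the low-substitution ones, with 445 to 549 parent reads. Percents of these variants therefore follow their parent counts.

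The 11 parents without a RefSeq match were shifted far more often. Of them 6 reached 10% in every library and 9 reached 1%, and the median of their mean percent was 38.4%. The parents and the most abundant form of each that the text below turns on read:
parent 8: cGCGACCTcagatcagacgtg
parent 8, -1 form: cCGCGACCtcagatcagacgtg
parent 20: gCGGCGACtctggacgcgagcc
parent 20, -1 form: gGCGGCGActctggacgcgagcc
parent 23: tCCCTCCGggggggtgtcggcg
parent 23, -1 form: cTCCCTCCgggggggtgtcggcg
parent 29: aCGCCTGTctgagcgtcgct
parent 29, +1 form: cGCCTGTCtgagcgtcgct
parent 34: aGGTCCCTgttcgggcgcca
parent 34, -1 form: cAGGTCCCtgttcgggcgcca
parent 39: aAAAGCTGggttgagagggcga
parent 39, +1 form: aAAGCTGGgttgagagggcga

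Parent 29 had the highest mean percent of all, 552%. Its values were 292%, 303% and 870% in NAFLD and 524%, 834% and 489% in normal, with no order by group. The difference was -214 points within the low-substitution set and -248 points within the high-substitution set, where the groups overlapped. Parents 36 and 38 also came above 100% on average: parent 36 ranged from 82.6% to 172.6% and parent 38 from 118.0% to 246.6%. Within the low-substitution and high-substitution sets the difference was 34.6 and 33.0 points for parent 36 and 23.7 and 82.6 points for parent 38. Parent 38 was read mostly as the +1 form and parent 36 as the -1 form. Parents 20, 23, 29, 36 and 38 had reads at all 3 shifted starts at 5% of the parent or more in every library, 5 of the 11 unmatched parents and 0 of the 23 miRNA parents.

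Whether shifting differed between NAFLD and normal liver was first asked over all 45 parents together. The shifted reads summed to 4.71%, 2.57% and 2.75% of the parent reads in NAFLD 1 to 3 and to 3.12%, 1.76% and 2.37% in normal 1 to 3. The means, 3.35 ± 1.18% and 2.42 ± 0.684% (SD, n = 3 each), differed by 0.930 points, less than the spread between libraries (exact permutation p = 0.4). NAFLD 1 and normal 2 decided much of this: the difference was 0.249 points without NAFLD 1 and 0.601 points without normal 2. Within the low-substitution set the difference was 1.96 points and within the high-substitution set 0.906 points. Over the 23 miRNA parents alone the percents were 2.10%, 1.39% and 1.49% in NAFLD and 1.79%, 1.05% and 1.75% in normal (exact permutation p = 0.7), a difference of 0.130 points. Without miR-122-5p among them this turned to -0.320 points, at 4.44%, 3.19% and 3.36% in NAFLD and 4.37%, 3.04% and 4.54% in normal (exact permutation p = 0.9).

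By kind of shift, the +1 forms of all parents came to 2.78%, 1.74% and 1.87% in NAFLD and 1.98%, 1.21% and 1.65% in normal (exact permutation p = 0.4). The +2 forms came to 0.669%, 0.276% and 0.260% against 0.308%, 0.124% and 0.130% (exact permutation p = 0.3). The -1 forms came to 1.26%, 0.554% and 0.623% against 0.837%, 0.428% and 0.586% (exact permutation p = 0.6). In each kind NAFLD 1 was the highest library and normal 2 the lowest. The median over the 38 parents with at least 100 reads in every library gave 0.980%, 0.803% and 0.930% in NAFLD and 0.777%, 0.674% and 0.773% in normal, without overlap (exact permutation p = 0.1).

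Of the single parents, 24 had enough reads in every library, and for 6 of these the percents of the groups did not overlap: parents 20, 23 and 39 were higher in NAFLD, and miR-24-3p, parent 8 and parent 34 were lower. Among the 151 parents with enough reads of the 500 most abundant, 12 were higher without overlap (7.95%) and 4 lower (2.65%). The median log2 ratio of NAFLD to normal was 0.00 over the 24 and 0.09 over the 151. Each parent without overlap has an exact permutation p = 0.1, which is no test for parent 34, for the reason given below. In a fit of log2 percent with limma over the 151, the number with an adjusted p under 0.05 was 0, with 6 at an unadjusted p under 0.05. With the substitution set as a covariate the number was also 0, with 18 of the 151 at an unadjusted p under 0.05.

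Parent 34 had the largest ratio. Its shifted reads were 6.81%, 5.40% and 5.27% of the parent in NAFLD and 60.1%, 17.2% and 29.9% in normal, mostly -1 forms. The -1 forms alone were 5.30%, 4.99% and 4.88% in NAFLD and 44.3%, 15.7% and 28.2% in normal. The parent tag itself had 4121 to 7976 reads in NAFLD and 177 to 447 in normal, and the -1 forms also had more reads in NAFLD. Parent 34 came among the 50 through its mean of 558 TPM in NAFLD, beside 23.9 TPM in normal, so its parent reads and the percents that divide by them are given as a description, with no test. The difference was -38.2 points within the low-substitution set and -11.9 points within the high-substitution set.

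Parent 8, the most abundant of the unmatched parents, had 11.3%, 9.07% and 8.72% shifted reads in NAFLD and 12.8%, 12.0% and 11.4% in normal, almost all starting 1 base earlier. The difference was -0.772 points within the low-substitution set and -3.09 points within the high-substitution set. Against all reads with the parent's first 16 bases the groups also did not overlap, at 2.99% to 3.65% and 4.19% to 4.36%. For miR-24-3p, a miRNA of the miR-23/27/24 clusters, the values were 1.29%, 1.38% and 1.37% in NAFLD and 1.45%, 1.39% and 1.64% in normal, from 30 to 47 shifted reads per library. The 95% Wilson intervals of its shares in the sum of shifted and parent reads, 0.956% to 1.68% in NAFLD 1 and 1.22% to 2.14% in normal 3, overlapped, so its difference was within counting error. Within the low-substitution and high-substitution sets it was -0.259 and -0.0191 points.

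On the higher side, parent 23 had 101.7%, 104.2% and 94.0% in NAFLD and 91.9%, 70.1% and 58.9% in normal. The -1 forms set this order, with 73.8% to 77.8% in NAFLD and 36.7% to 47.9% in normal. The separation also held against all reads with the parent's start, at 84.6% to 86.6% and 53.2% to 77.6%. Parent 39 had 39.2%, 43.5% and 48.4% in NAFLD and 31.9%, 38.0% and 29.6% in normal, with +1 forms in the majority. Parent 20 had 234%, 426% and 248% in NAFLD and 216%, 188% and 227% in normal, where NAFLD 2 was highest and NAFLD 1 lay closest to the normal libraries. Against all reads with its start parent 20 read 114.8% to 151.8% in NAFLD and 100.8% to 131.4% in normal, which overlap. Within the low-substitution and high-substitution sets the difference in percent of the parent tag was 26.3 and 29.0 points for parent 23, 8.51 and 7.93 points for parent 39, and 13.01 and 149.7 points for parent 20.

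Below the count limit, miR-26a-5p had 0.849%, 0.796% and 1.09% in NAFLD and 0.470%, 0.502% and 0.522% in normal, chosen for mention after its values were seen. Its groups did not overlap, with shifted reads as low as 14 in 1 library, and the difference was 0.354 and 0.439 points within the low-substitution and high-substitution sets. Within the sets of like substitution, 10 of the 24 parents were higher in NAFLD in both sets (41.7%) and 4 lower (16.7%), beside 29.8% and 5.96% of the 151.

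In read counts rather than percents, edgeR called no shifted family. Its quasi-likelihood test, with library sizes equal to the clean reads, found 0 of 9119 families at an adjusted p under 0.05 (0%), and before adjustment 428 were higher in NAFLD (4.69%) and 1 was lower (0.011%) at p under 0.05. Of the 135 shifted families of the parents, 65 passed the filter on low counts. None of the 65 was called, and 2 were higher at an unadjusted p under 0.05, the -1 forms of parents 34 and 38. Parent 34 came among the 50 through its NAFLD reads, so the value of its -1 forms is a description and no test. The median log2 fold change was 0.39 over the 65 and 1.01 over all 9119. With TMM factors these medians were -0.35 and 0.24, and with DESeq2 -0.42 and 0.14, so the sign over the shifted families depends on the scaling. DESeq2 called 34 families, among them 1 shifted family higher and 1 lower.

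With the substitution set as a covariate, edgeR called 43 families (0.472%) at an adjusted p under 0.05, of which 0 were shifted families. Before adjustment, 21 of the 65 shifted families were higher in NAFLD at p under 0.05, beside 2636 of all 9119 families, a similar share. The smallest edgeR adjusted p among the shifted families was 0.0504, for the -1 forms of parent 34. It is no test either, since parent 34 was selected through its NAFLD reads. The +1 forms of miR-192-5p had a log2 fold change of 0.03 ± 0.31 (SE) and those of miR-140-3p one of 0.11 ± 0.33 (SE) in the fit without the covariate, with edgeR adjusted p of 0.960 and 0.842. For miR-101b-3p the +1 forms had -0.34 ± 0.34 (SE), the -1 forms -0.60 ± 0.65 (SE) and the unshifted family -0.31 ± 0.27 (SE), with an edgeR adjusted p of 0.794 for each.

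Among single tags, edgeR called 0 of 19492 (0%) at an adjusted p under 0.05, and before adjustment 1848 were higher in NAFLD (9.48%) and 6 were lower (0.0308%) at p under 0.05. Of 367 shifted tags tested, 0 were called and 10 were higher at an unadjusted p under 0.05. All 10 belonged to parents without a RefSeq match. With the substitution set as a covariate, 189 tags were called (0.97%), 2 of them shifted tags of parent 20. Its +1 form of 24 nt had a log2 fold change of 3.42 ± 0.54 (SE) in that fit (edgeR adjusted p = 0.0469), and its -1 form of 25 nt one of 3.21 ± 0.51 (SE) (edgeR adjusted p = 0.0476). Both are long forms of parent 20 that end in a run of G.

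The extra base of a -1 form was not used to find it and can be compared with the hairpin. Over 22 miRNA parents with a hairpin in RefSeq, 42590 reads began 1 base early. The extra base was the hairpin's own in 90.8%, 87.4% and 87.3% of them in NAFLD and 92.4%, 89.8% and 92.3% in normal (exact permutation p = 0.2). This pool includes let-7a-5p/let-7c-5p, whose hairpins together hold every base at this position and cannot mismatch. Over the 19 parents with 1 possible base, with 37935 reads, the shares were 94.4%, 92.3% and 93.2% in NAFLD and 96.1%, 93.9% and 95.3% in normal (exact permutation p = 0.2). A base drawn from the hairpin is what a cut 1 base upstream would give, as background. miR-101b-3p carried most of these reads, and its extra base was the hairpin's G in 99.7% of them. Over the 21 parents without it, with 12823 reads, the shares were 68.8%, 70.2% and 69.2% in NAFLD and 68.7%, 72.0% and 72.8% in normal. These 21 still include let-7a-5p/let-7c-5p, which cannot mismatch and raises their shares. The higher shares of the pools above are thus largely those of miR-101b-3p.

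Parents differed widely in this respect. miR-29a-3p had the hairpin's C in 98.4% of its -1 reads, let-7g-5p in 98.3%, and miR-192-5p had the hairpin's T in 83.0%. miR-122-5p had the hairpin's C in 57.7%, followed by A in 17.1%, T in 15.8% and G in 9.35%. let-7f-5p, with A or G before it in its hairpins, carried these bases in 10.8% of reads, while 51.8% began with C and 37.4% with T. A C stands before let-7g-5p in its hairpin, but let-7g-5p differs from let-7f-5p within the 16 bases that the rule compares. Where the extra bases of the let-7f-5p reads came from was not tested. The 100% of let-7a-5p/let-7c-5p says nothing, for the reason given above.

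The 3′ ends were not used by the rule either. Over all shifted reads, 49.3%, 42.1% and 42.5% in NAFLD and 41.8%, 36.9% and 33.7% in normal ended at the same base as the parent, without overlap (44.7 ± 4.04% and 37.5 ± 4.08%, SD, n = 3 each, exact permutation p = 0.1). Over the miRNA parents alone the shares were 25.05%, 25.6% and 24.7% in NAFLD and 25.3%, 24.1% and 25.5% in normal (exact permutation p = 0.8). Over the 11 parents without a RefSeq match they were 67.9%, 61.4% and 64.0% in NAFLD and 63.4%, 56.7% and 56.1% in normal, which overlap (exact permutation p = 0.2). Shifted reads as long as the parent were fewer in NAFLD, 14.8%, 15.4% and 15.3% against 18.7%, 18.5% and 21.7% (exact permutation p = 0.1). Over the miRNA parents that share was 21.1%, 19.6% and 19.1% in NAFLD and 23.5%, 21.2% and 23.1% in normal, again without overlap.

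Single parents kept characteristic ends. The +1 forms of miR-192-5p ended 2 bases beyond the parent in 47.8% of reads and at the parent's end in 14.9%, so their mean length, 22.7 nt, was close to the 22.4 nt of unshifted reads. The +1 forms of miR-101b-3p ended 1 base beyond in 64.0%, and its -1 forms ended 1 or 2 bases short in 44.0% and 45.0%, which kept their mean lengths at 21.5 and 21.6 nt beside 21.6 nt for unshifted reads. In contrast, the +1 forms of miR-140-3p ended at the parent's end or 1 base short in 43.3% and 35.7%, and were shorter than unshifted reads, 21.8 against 22.9 nt. Those of miR-191a-5p ended with the parent in 72.9%. The shifted reads of parent 29 and parent 23 ended with the parent in 92.6% and 85.6%, beside 91.0% and 88.3% of their unshifted reads, so these parents differed at the start and shared their end.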

How the data were processed

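Small RNA was gel-purified and sequenced by the authors, who removed low-quality reads, adaptor contaminants and reads that were too short. The deposited values are raw read counts per tag, not normalized and not filtered for a genome match. They sum to between 11601058 and 11880695 reads in a library. Wilson intervals at 95% cover counting error only. The deposited length tables and logs, and a repeat of the same tag lists, were not used here.

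TPM was the count divided by the clean reads of the library, times 1000000. The members and lists were chosen with earlier results of these data known. The rule was read as collapsing tags with the same first 18 bases before taking 50 parents; the opposite order, an alternative, gives 15. Parents named were the 10 most abundant, the 10 with the highest mean shifted percent among those with 100 or more reads in each library, and up to 3 in each direction with the largest ratio among those without overlap and with 20 or more shifted reads in each library. Percents were compared by two-sided exact permutation tests. Families (tags of 18 to 25 nt with the same first 16 bases) and tags with at least 15 reads in all were tested with edgeR 4.0.16 (glmQLFit, glmQLFTest, filterByExpr, Benjamini-Hochberg over all of them). DESeq2 1.42.0, limma 3.58.1 on log2(TPM + 1), TMM factors, filters, the replicate block and the substitution set were alternatives, and counts with 1 substitution allowed, miRNA parents only, other treatment of nested or variant parents, single parents left out of the base and end comparisons, and limma on log2 percent were added after seeing the data. The standard error for edgeR is the absolute log2 fold change over the square root of F. The software was R 4.3.3 and Python 3.11.15 with numpy 2.4.6, pandas 2.3.3 and scipy 1.17.1. The fits were tested on simulated data. The p-values measure the spread between these rats only.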

Additional observations from a re-analysis of the deposited data

How the results depend on the processing

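The difference in pooled shifted percent was 0.0786 points with 50 tags taken before collapsing, 2.07 points with nested parents kept as parents, and for miRNA parents 0.0322 points without miR-192-5p and -0.320 points without miR-122-5p. With 1 substitution allowed it was 0.524 points, without overlap (exact permutation p = 0.1). The -1 difference of 0.196 points turned to -0.0114 (50 tags before collapsing) and -0.0376 (miRNA parents only), and leaving out 1 replicate gave -0.0286 to 0.325 points. The 3 parents higher and 3 lower without overlap became 0 and 1 both with 50 tags taken before collapsing and with miRNA parents only. Leaving out 1 replicate gave 3 to 5, the 5 without normal 1, and 3 to 4. The counts were 13 and 7 within the low-substitution set and 13 and 5 within the high-substitution set. There 1 library stands against 2, which separate far more easily, so these counts cannot be set against the 3 and 3. The share with the parent's 3′ end turned from 7.16 to -0.63 points as a median over parents. Shifted families called went from 0 to 2 with DESeq2, and shifted tags from 0 to 2 with the substitution set.

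For the parents named in the next sentence the groups overlapped and the sign changed or, for parent 10, the difference reached 0. Leaving out 1 replicate, the difference in points ranged from -0.00692 to 0.0116 for miR-122-5p, -0.0278 to 0.0149 for let-7f-5p, -0.0961 to 0.0117 for let-7a-5p/let-7c-5p, -0.00538 to 0.0518 for let-7b-5p, -12.4 to 3.50 for miR-192-5p, -0.0334 to 0.0273 for let-7g-5p, -0.0103 to 0.0877 for let-7d-5p, -0.0407 to 0.380 for miR-29a-3p, -50.0 to 0 for parent 10, -266 to 10.2 for miR-140-3p, -0.54 to 45.0 for parent 36 and -11.6 to 6.53 for miR-101b-3p. With 1 substitution allowed, the sign turned for let-7f-5p (0.0163), let-7a-5p/let-7c-5p (0.00695) and miR-101b-3p (-1.69), for which it also turned with no substitution allowed, against all reads with its start (-3.19). Within the low-substitution set it turned for let-7f-5p (0.0224), let-7a-5p/let-7c-5p (0.0441), let-7g-5p (-0.00499) and parent 11 (10.2), and within the high-substitution set for let-7f-5p (0.0150), let-7a-5p/let-7c-5p (0.0180), miR-29a-3p (-0.204), miR-140-3p (21.6) and parent 11 (0.440), and it was 0 for parent 10. The cause was not tested.

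Deviations of same-numbered libraries correlated at a mean r of 0.194 (-0.142 to 0.380, 3 pairs). For libraries of unlike number the mean r was -0.101 (-0.629 to 0.498, 6 pairs). The mean was higher for same-numbered libraries, but the ranges overlapped. With 3 pairs, whether the replicate numbers pair the libraries cannot be decided. With the replicate block, 5 parents moved up in all 3 pairs and 3 down in place of 3 and 3, the pooled difference stayed at 0.930 points (exact sign-flip permutation p = 0.25, the smallest possible), and edgeR called 0 shifted families and 0 shifted tags. With 3 libraries a group no exact test can pass 0.05. Where a parent had under 20 shifted reads in a library, it was left out of the counts of parents whose groups did not overlap, since counting error is large there. The counts of parents by level of percent and the median over the 38 parents had no such limit on shifted reads.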
